A study of Homo sapiens with 12 samples.

Results

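BMP6, BMPR2, ID1, ID2, ID3, SMAD6, SMAD7, SKIL and TGFB1 were followed across 12 RNA-seq libraries of MV-4-11, an established acute myeloid leukaemia line that carries an activated FLT3 receptor. They are 9 of the 20036 genes in the expression table and were picked by symbol, with their levels in these libraries already known. Their levels and differences are therefore given as a description, without a test. The series compares DMSO, the solvent control, with HPA-12, which blocks CERT, the carrier of ceramide from the endoplasmic reticulum to the Golgi, with crenolanib, an inhibitor of the FLT3 kinase, and with both compounds together. Each group has 3 libraries, and the cells of every group carry the same wild-type label. The compounds were applied for 48 h. The sources used here give neither the doses nor a time for the DMSO cells. Nothing states that libraries of 1 group are separate cultures, so p-values and errors cover no more than library-to-library spread, possibly technical. In the text, "combination" stands for HPA-12 plus crenolanib.

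Bone morphogenetic proteins (BMPs) are secreted ligands that join a type II receptor, such as BMPR2, to a type I receptor. The receptors phosphorylate SMAD1, SMAD5 and SMAD9, which enter the nucleus with SMAD4 and switch on targets such as the ID genes. ID proteins lack a DNA-binding region and hold E proteins (TCF3, TCF4, TCF12) away from E-box DNA, which delays differentiation in many lineages. TGF-beta and activin use a parallel arm through SMAD2 and SMAD3. SMAD6 and SMAD7 are inhibitory SMADs, induced by the pathway and acting back on it, with SMAD6 directed mainly at the BMP arm. SKIL (SnoN) is a nuclear repressor of SMAD complexes. In blood biology, BMP6 is best known as the signal that raises hepcidin in the liver and so limits iron supply.

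In outline, BMP6 was nearly silent in DMSO and was highest with HPA-12. The 3 ID genes were highest in the combination, but ID1 was at its lowest with HPA-12. SMAD6 was lower than DMSO in each treated group, and lowest in the combination. In the values as deposited, SKIL was 7.99 to 9.95 times its DMSO level with a single compound and 2.48 times that level with both. That gap was smaller once the libraries were rescaled, as given below.

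Values are FPKM, read fragments scaled to transcript length and library size, as the authors deposited them, so levels of different genes can be set side by side. Estimated depth was 13.6 to 16.0 M reads for DMSO, 12.1 to 12.8 M for HPA-12, 10.1 to 10.2 M for crenolanib and 4.4 to 5.07 M for the combination. Mitochondrially encoded genes held 19.6% to 22.1% of the FPKM sum in DMSO and HPA-12, 35.9% to 36.2% in crenolanib and 61.6% to 62.6% in the combination. The combination libraries also had more genes listed at 0, 7894 to 8049 against 4792 to 5217 in the other libraries. The median gene was lower by a log2 difference of −0.62 in the combination than in DMSO. With each library rescaled by its median ratio to the mean profile, that median was −0.11. Log2 differences that involve the combination are given with the value under this median-ratio scaling beside them. All 10 myeloid leukaemia markers checked, FLT3, MPO and CD33 among them, were detected in each group. Their summed level was 967 to 987 FPKM in DMSO, 397 to 421 in HPA-12, 925 to 948 in crenolanib and 681 to 724 in the combination. In HPA-12, where BMP6 was highest and ID1 lowest, MPO averaged 15.9 FPKM against 391 in DMSO, and LYZ 86.9 against 399. CD33 was also lower than in DMSO, and ITGAM overlapped it. Yet 6 of the 10 markers were above DMSO in each HPA-12 library. Among these, FLT3 averaged 156 FPKM against 94.6 in DMSO, and CSF1R 73.9 against 34.7. The summed level of 15 erythroid markers was 78.5 to 85.3 FPKM in DMSO, 219 to 225 in HPA-12, 4386 to 4662 in crenolanib and 27593 to 28066 in the combination. The erythroid order is also that of ID2 and ID3, and the part of either marker list in the results was not tested. In bulk RNA, a change in how many cells express a gene cannot be told apart from a change in the RNA per cell.

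SMAD motifs were searched around the start sites of all 9 members, and the sequences of 4 members are printed as examples. They are windows from RefSeq on GRCh38.p14, running from 250 bases before the start to 50 bases within the first exon. Each is written 5′ to 3′ on the gene's own strand, with SMAD and CRE motifs in capitals. SMAD6 (chr15:66701986-66702285, plus strand) was lower in each treated group, and ID1 (chr20:31605039-31605338, plus strand) was highest in the combination. ID3 (chr1:23559452-23559751, minus strand) followed ID1 except with HPA-12, and SKIL (chr3:170357465-170357764, plus strand) was highest with single compounds.
SMAD6: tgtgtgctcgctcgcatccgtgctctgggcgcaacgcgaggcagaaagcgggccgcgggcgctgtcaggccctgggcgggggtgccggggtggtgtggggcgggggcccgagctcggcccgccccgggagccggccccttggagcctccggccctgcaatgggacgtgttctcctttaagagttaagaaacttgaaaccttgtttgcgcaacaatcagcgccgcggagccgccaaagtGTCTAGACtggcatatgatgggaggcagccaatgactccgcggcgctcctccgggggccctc
ID1: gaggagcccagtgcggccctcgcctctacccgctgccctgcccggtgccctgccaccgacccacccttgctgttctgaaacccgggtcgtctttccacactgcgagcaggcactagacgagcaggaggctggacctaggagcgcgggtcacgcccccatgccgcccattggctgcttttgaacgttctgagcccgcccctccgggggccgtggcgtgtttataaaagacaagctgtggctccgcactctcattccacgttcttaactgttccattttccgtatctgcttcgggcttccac
ID3: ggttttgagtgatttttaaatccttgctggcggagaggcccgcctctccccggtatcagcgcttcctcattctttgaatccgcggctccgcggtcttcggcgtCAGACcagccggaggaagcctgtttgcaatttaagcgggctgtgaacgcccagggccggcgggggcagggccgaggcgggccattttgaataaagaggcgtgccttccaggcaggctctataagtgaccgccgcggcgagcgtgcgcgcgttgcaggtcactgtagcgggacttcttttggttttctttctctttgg
SKIL: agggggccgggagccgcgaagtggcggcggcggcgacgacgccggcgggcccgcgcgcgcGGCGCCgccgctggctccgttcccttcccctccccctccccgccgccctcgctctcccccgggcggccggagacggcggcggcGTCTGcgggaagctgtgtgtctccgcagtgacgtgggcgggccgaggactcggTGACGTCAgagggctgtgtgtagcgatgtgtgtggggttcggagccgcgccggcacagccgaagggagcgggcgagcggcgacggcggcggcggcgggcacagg
Motifs were searched on both strands. The SMAD6 window holds the SMAD palindrome GTCTAGAC, which starts 12 bases before the start site and is found in 71 of 35116 windows of the same length (0.202%). The SKIL window holds the CRE palindrome TGACGTCA, bound by the CREB and ATF family, 54 bases before the start site (1.85% of windows). It also holds the SMAD box GTCTG 107 bases before it and the GC-rich SMAD motif GGCGCC 190 bases before it. The box, counted as CAGAC or GTCTG, is in 45.3% of windows, and GGCGCC in 19.2%. ID3 has 1 SMAD box, CAGAC, 147 bases before its start. None of these motifs is in the ID1 window, which says nothing of more distant elements. Among the members not printed, BMPR2 has 4 SMAD boxes and 1 GC-rich SMAD motif, and the 3 SMAD7 windows have 2, 1 and 0 boxes. ID2, BMP6 and TGFB1 have none of these motifs, though BMP6 was higher and TGFB1 lower than DMSO in each treated group. All 9 genes matched a RefSeq entry, and the matches describe letters, not binding.

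**Figure D1:**
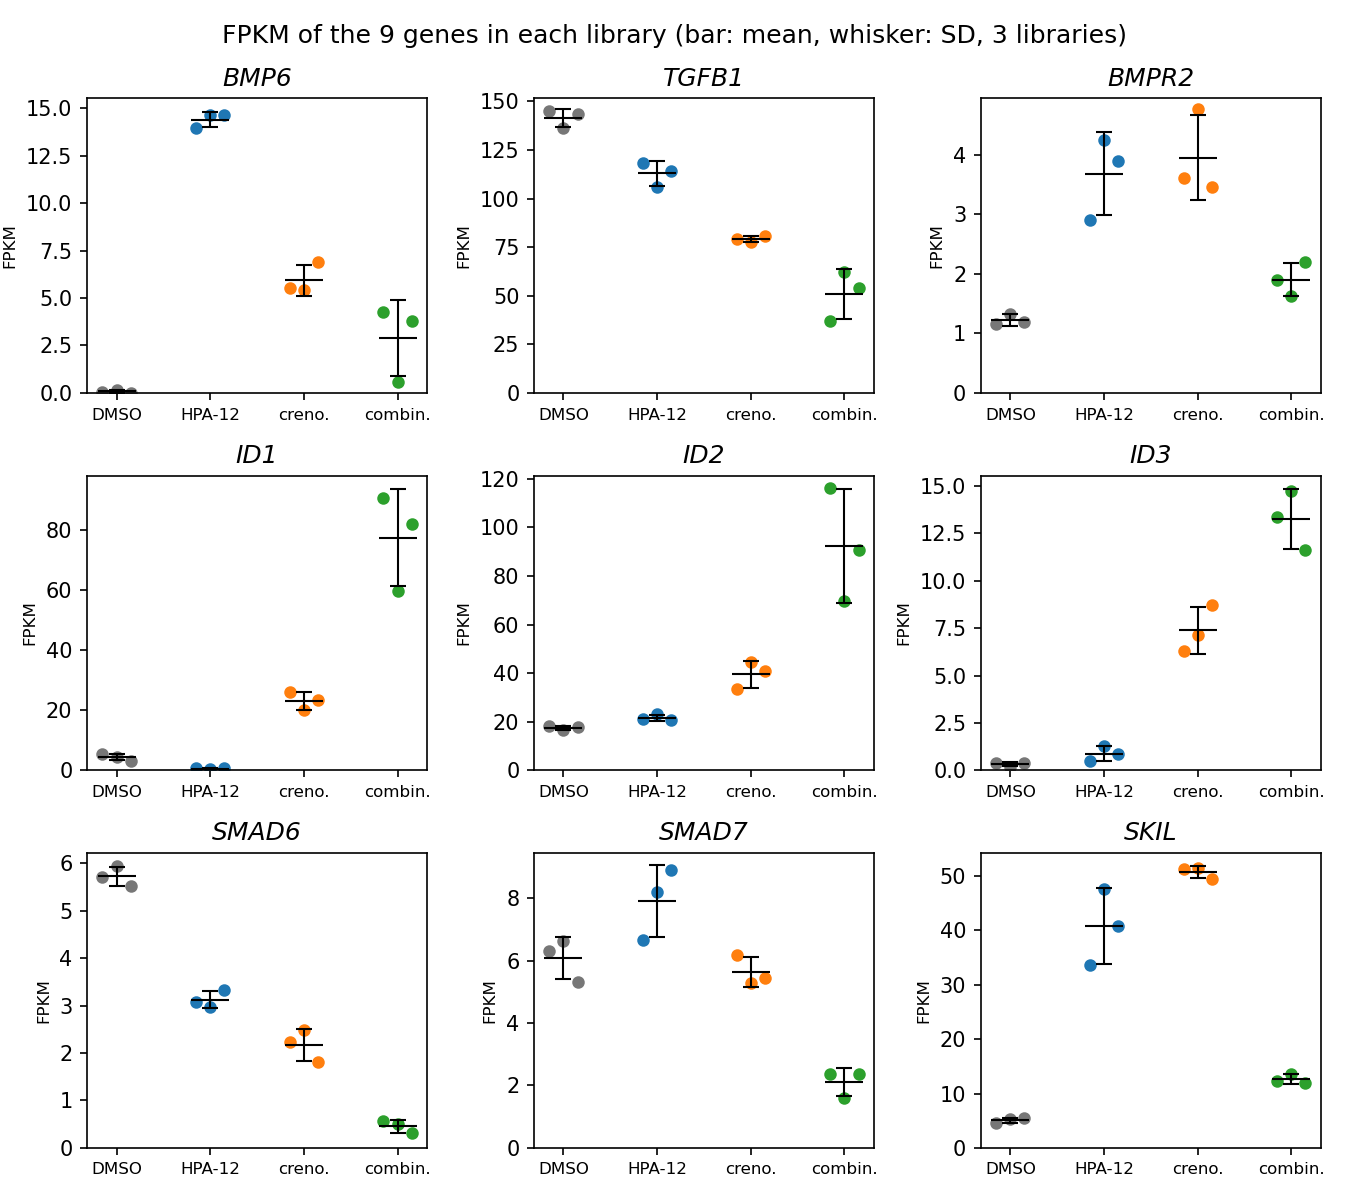
FPKM (linear axis from 0) of the 9 genes in each of the 12 libraries, grouped by treatment, with the mean and SD of 3 libraries. BMP6 peaks with HPA-12 (13.9 to 14.6), ID1 in the combination (59.8 to 90.9), SMAD6 in DMSO (5.52 to 5.93) and SKIL with crenolanib (49.5 to 51.5).

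BMP6, the ligand of the set, stood at 0.0496, 0.175 and 0 FPKM in the 3 DMSO libraries. It stood at 13.9, 14.6 and 14.6 FPKM with HPA-12, and at 5.51, 5.43 and 6.89 FPKM with crenolanib. Combination libraries gave 4.26, 0.573 and 3.79 FPKM. Each treated library was above each DMSO library, and the 4 groups did not overlap, in the order HPA-12, crenolanib, combination, DMSO. In rank, BMP6 moved from above 1.14% of the tested genes in DMSO to above 73.0% with HPA-12. The DMSO values rest on an estimated 0 to 6.61 reads per library, against 482 to 520 reads with HPA-12. On the log2(FPKM + 1) scale the difference from DMSO was 3.84 ± 0.35 (SE, n = 3 per group) for HPA-12 and 2.69 ± 0.35 for crenolanib. For the combination it was 1.67 ± 0.35 (2.04 by median ratio). Here and below, the SE of a log2 difference rests on 1 spread per gene shared by the 4 groups, so it is the same in each comparison. For BMP6 the groups differed in spread, with an SD of 2.01 FPKM in the combination and 0.394 with HPA-12. A fold for so low a control depends on the added constant. With 0.1 in place of 1 the HPA-12 difference was 6.50, so its size is not fixed by these data.

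As deposited, BMP6 was lower with both compounds than with either compound alone. The log2 difference was −1.02 ± 0.35 against crenolanib and −2.17 ± 0.35 against HPA-12, with median-ratio values of −0.52 and −1.63. Combination library 2 holds the low BMP6 value, an estimated 8.08 reads. Without it, the difference from crenolanib was −0.46. After median-ratio scaling, combination libraries 1 and 3 stood at 6.10 and 5.49, inside the crenolanib range of 4.85 to 6.18, so the 2 groups overlapped. The same library carried more collagen RNA than any other, with COL1A1 at 6.81 FPKM, COL1A2 at 3.36 and COL3A1 at 8.49, against at most 0.402 FPKM of any of these in the other 11. Its summed level of 13 stromal, endothelial and epithelial markers without PECAM1 was 25.0 FPKM, against 3.48 to 6.66 elsewhere, and the part of this in its BMP6 level was not tested. With PECAM1, the list summed to 15.8 to 17.5 FPKM in DMSO, 63.1 to 66.2 in HPA-12, 28.4 to 31.7 in crenolanib and 11.5 to 32.2 in the combination. PECAM1 alone averaged 12.2 FPKM in DMSO, 59.1 in HPA-12, 25.5 in crenolanib and 6.34 in the combination. Of the keratins in the list, KRT19 was listed at 0 in all 12 libraries. Group means of KRT8 were 0.954 to 4.01 FPKM and those of KRT18 1.22 to 2.02 FPKM.

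TGFB1, the precursor of TGF-beta 1, was the most abundant of the 9 genes in the DMSO, HPA-12 and crenolanib groups. It stood at 145, 136 and 143 FPKM in DMSO and at 119, 106 and 114 FPKM with HPA-12. Crenolanib libraries gave 79.1, 77.7 and 80.6 FPKM, and combination libraries 37.0, 62.1 and 54.1 FPKM. The 4 groups did not overlap and ran in that order, yet TGFB1 stayed above 96.5% of tested genes even in the combination. Its log2 difference from DMSO was −0.32 ± 0.14 for HPA-12, −0.83 ± 0.14 for crenolanib and −1.48 ± 0.14 for the combination. Median-ratio scaling put the combination at −0.80 and crenolanib at −0.82. The step from crenolanib to the combination, −0.65, became 0.02 under that scaling, and these 2 groups overlapped. With libraries rescaled by their upper quartile it was −0.02, so no direction of this step is fixed by these data.

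**Figure D2:**
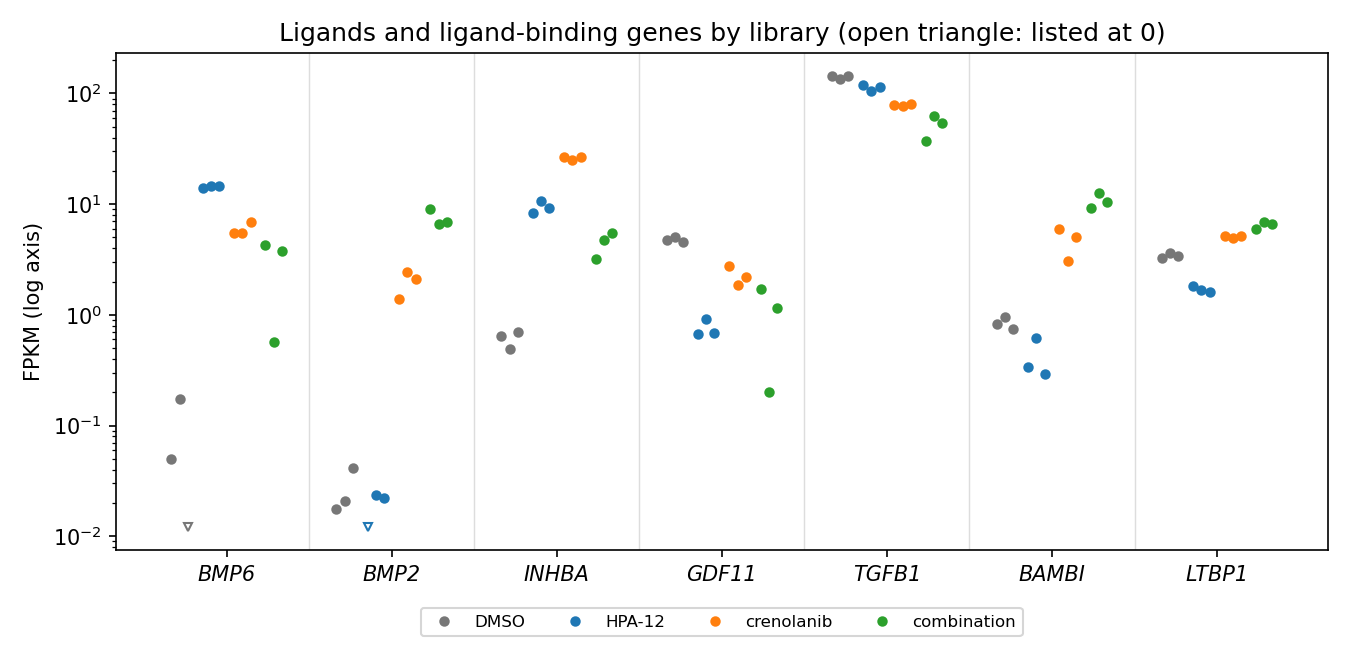
FPKM (log axis) of ligands and ligand-binding genes in each library, coloured by treatment, with open triangles for values listed at 0. BMP6 and INHBA are high with single compounds, BMP2 and BAMBI are high with crenolanib and in the combination, and TGFB1 as deposited declines across the groups from 145 to 37.0 FPKM.

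Other ligands did not share the BMP6 pattern as a group. Of 17 other BMP and GDF ligands 4 could be tested, and of 12 TGF-beta and activin ligands 2. In these and the later counts a gene passed when limma's Benjamini-Hochberg adjusted p over 11149 genes was below 0.05. INHBA, which encodes the activin A subunit, rose from 0.610 ± 0.109 (SD, n = 3) to 9.46 ± 1.21 FPKM with HPA-12 (log2 difference 2.69 ± 0.16, limma adjusted p = 9.0e-08). It reached 26.1 ± 0.823 FPKM with crenolanib (4.08 ± 0.16, limma adjusted p = 2.1e-09). In the combination it stood at 4.47 ± 1.17 FPKM, above DMSO by 1.74 (2.24 by median ratio) and below crenolanib by a log2 difference of −2.33 (−1.74 by median ratio, limma adjusted p = 2.3e-07 as deposited). Against HPA-12 the combination was at −0.95 (limma adjusted p = 0.00018), a call that ended under median-ratio scaling (−0.33, adjusted p = 0.093) and upper-quartile scaling (−0.31, 0.12). BMP2, a ligand close to BMP4, was near 0 in both groups without crenolanib. It was at 0.0264 ± 0.0126 FPKM in DMSO and 0.0152 ± 0.0131 with HPA-12, then 1.99 ± 0.538 with crenolanib and 7.51 ± 1.39 in the combination. Its rise passed with crenolanib (1.53 ± 0.16, limma adjusted p = 1.1e-05) and in the combination (3.04 ± 0.16, 3.52 by median ratio, limma adjusted p = 1.1e-08 as deposited). The low end of that scale is an estimated 1.02 to 2.03 reads per DMSO library. Its 4 group means had the order of those of ID1, with DMSO and HPA-12 overlapping. GDF11, an activin-like ligand, fell with HPA-12 from 4.80 ± 0.263 to 0.755 ± 0.138 FPKM (−1.73 ± 0.25, limma adjusted p = 0.00012). Its fall with crenolanib (−0.83, limma adjusted p = 0.013) was lost with a constant of 0.1 (adjusted p = 0.12), under upper-quartile scaling (0.071) and without crenolanib library 2 (0.052).

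BMPR2, the type II receptor for BMPs, was higher in each treated group than in DMSO. DMSO libraries gave 1.15, 1.33 and 1.19 FPKM, HPA-12 libraries 2.91, 4.25 and 3.89, and crenolanib libraries 3.62, 4.77 and 3.46. In the combination it stood at 1.89, 1.62 and 2.19 FPKM. HPA-12 and crenolanib overlapped, while the combination lay between them and DMSO without touching either. The log2 difference from DMSO was 1.06 ± 0.16 for HPA-12, 1.14 ± 0.16 for crenolanib and 0.38 ± 0.16 for the combination (0.83 by median ratio). Against crenolanib the combination was at −0.77 (−0.27 by median ratio) and against HPA-12 at −0.68 (−0.17), and under that scaling the combination overlapped both.

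The other receptors gave a mixed picture. ACVR1, a type I receptor through which BMP6 can signal, rose from 1.35 ± 0.180 to 4.02 ± 0.197 FPKM with HPA-12 (1.09 ± 0.15, limma adjusted p = 8.7e-05) and to 2.56 ± 0.211 FPKM with crenolanib (0.60 ± 0.15, limma adjusted p = 0.0052). In the combination it stood at 0.885 ± 0.361 FPKM, a difference from DMSO of −0.34 that did not pass (limma adjusted p = 0.063). That difference did pass without combination library 2 (adjusted p = 0.0043), and it was 0.02 by median ratio. BMPR1A, another type I BMP receptor, was 1.5 ± 0.0722 FPKM in DMSO and did not pass with HPA-12 (0.15, limma adjusted p = 0.31) or crenolanib (0.06, 0.68). ENG, the endoglin co-receptor, fell with crenolanib (−1.17 ± 0.20, limma adjusted p = 0.00046) and in the combination (−2.57, −1.94 by median ratio, 3.6e-07). Of the SMADs that carry the BMP signal, SMAD1 was too low to test, at 0.128 to 0.627 FPKM in group means. SMAD5 stood at 3.74 ± 0.115 FPKM in DMSO and SMAD4 at 3.07 ± 0.139. SMAD4 passed upward with HPA-12 (0.35, limma adjusted p = 0.026) and crenolanib (0.35, 0.023). SMAD5 passed upward with crenolanib (0.36, 0.036) and not with HPA-12 (0.11, 0.52). These 3 calls were lost when any single DMSO library was left out, with adjusted p between 0.050 and 0.097. In the combination SMAD4 and SMAD5 were both at −0.72, calls that median-ratio scaling ended (−0.26, adjusted p = 0.068, and −0.22, 0.15).

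ID1, the ID gene most often used as a readout of BMP signalling, ran from lowest to highest as HPA-12, DMSO, crenolanib, combination. DMSO libraries gave 5.33, 4.36 and 3.29 FPKM and HPA-12 libraries 0.652, 0.404 and 0.761. Crenolanib libraries gave 26.2, 20.2 and 23.3 FPKM and combination libraries 90.9, 59.8 and 82.0. No 2 groups overlapped. Mean FPKM with HPA-12 was 7.14-fold lower than with DMSO, while crenolanib was 5.37-fold higher and the combination 17.9-fold higher. ID1 moved from above 5.09% of tested genes with HPA-12 to above 97.6% in the combination. The HPA-12 level rests on 6 to 12 estimated reads per library, and the combination level on 374 to 493. On the log2 scale the differences from DMSO were −1.72 ± 0.18, 2.20 ± 0.18 and 3.88 ± 0.18 (4.53 by median ratio for the combination). With HPA-12 added to crenolanib, ID1 was higher by 1.68 ± 0.18 (2.35 by median ratio), the opposite direction to HPA-12 alone. BMP6 was thus at its highest in the group in which ID1 was at its lowest.

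ID2, the most abundant ID gene in each group, was at 18.2, 16.6 and 18 FPKM in DMSO and 21.1, 23.1 and 20.9 with HPA-12. It was at 33.4, 44.5 and 40.8 FPKM with crenolanib and at 116, 69.8 and 90.8 in the combination. The groups did not overlap, and the step with HPA-12 was small. Log2 differences from DMSO were 0.29 ± 0.16, 1.12 ± 0.16 and 2.30 ± 0.16 (2.98 by median ratio for the combination).

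ID3 stood at 0.376, 0.197 and 0.388 FPKM in DMSO and at 0.484, 1.28 and 0.889 with HPA-12. Crenolanib libraries gave 6.31, 7.13 and 8.71 FPKM and combination libraries 13.4, 14.8 and 11.6. The groups again did not overlap, and ID3 kept the order of ID2. Mean FPKM was 23.1-fold above DMSO with crenolanib and 41.4-fold above it in the combination, on a DMSO base of 4.81 to 10.8 estimated reads per library. Its log2 differences from DMSO were 0.49 ± 0.18, 2.66 ± 0.18 and 3.43 ± 0.18 (3.96 by median ratio for the combination). ID1 and ID3 therefore differed in direction with HPA-12 alone. ID4, the fourth family member, did not pass the filter, with at most 0.455 FPKM in any library.

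**Figure D3:**
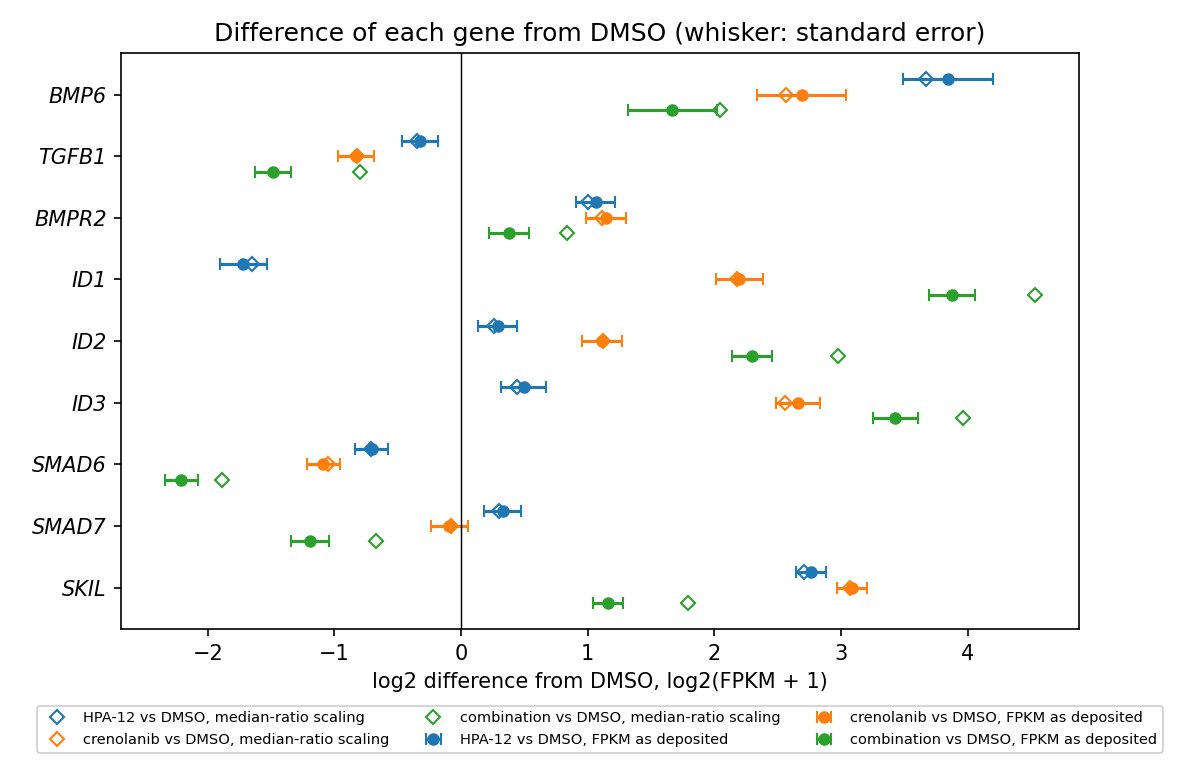
Log2 difference from DMSO on the log2(FPKM + 1) scale for the 9 genes, with the standard error as whisker for FPKM as deposited (filled circles) and median-ratio scaling as open diamonds. ID1 lies on both sides of 0 (−1.72 with HPA-12, 3.88 in the combination), while SMAD6 lies left of 0 for each treatment (−0.71 to −2.21).

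Set against the E proteins they bind, the ID transcripts shifted from minority to majority. The ratio of ID1 + ID2 + ID3 to TCF3 + TCF4 + TCF12, which no scaling of a library can alter, was 0.263 ± 0.012 (SD, n = 3) in DMSO and 0.405 ± 0.0208 with HPA-12. It was 1.48 ± 0.0802 with crenolanib and 4.92 ± 0.575 in the combination. No 2 groups overlapped. Both sides of the ratio differed. TCF3, the main E protein RNA here, fell from 77 ± 2.4 FPKM in DMSO to 46.9 ± 0.919 with HPA-12 (−0.70 ± 0.07, limma adjusted p = 9.2e-06). It fell to 35.2 ± 1.51 FPKM with crenolanib (−1.11 ± 0.07, limma adjusted p = 2.0e-07) and 27.3 ± 2.44 in the combination (−1.47, −0.79 by median ratio, 5.9e-09). Crenolanib was at −1.10 by median ratio, so under that scaling TCF3 was lower with crenolanib than in the combination. TCF12, a second E protein, rose with crenolanib (0.61 ± 0.13, limma adjusted p = 0.0020). Its rise with HPA-12 (0.44, 0.014) was lost without HPA-12 library 2 (adjusted p = 0.067). These are RNA ratios, and protein was not measured.

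**Figure D4:**
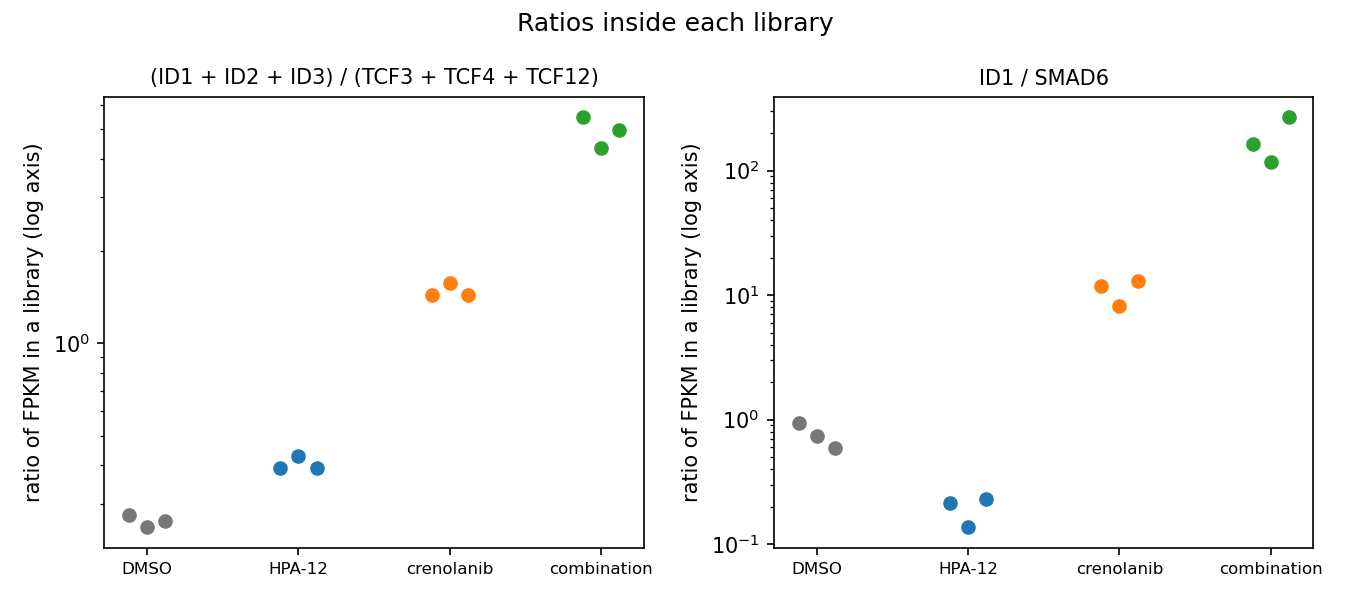
Ratio of FPKM within each library (log axis) for the summed ID genes over the summed E proteins, left, and for ID1 over SMAD6, right, by treatment. The left ratio runs from 0.251 to 0.275 in DMSO up to 4.32 to 5.47 in the combination, and the right ratio from 0.136 to 0.229 with HPA-12 up to 118 to 269 in the combination.

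SMAD6, the inhibitory SMAD of the BMP arm, did not run with the ID genes. DMSO libraries gave 5.72, 5.93 and 5.52 FPKM, HPA-12 libraries 3.07, 2.97 and 3.32, and crenolanib libraries 2.23, 2.48 and 1.80. Combination libraries gave 0.558, 0.507 and 0.305 FPKM, an estimated 12 to 22 reads each. The groups did not overlap, and the level was lower at each step from DMSO through HPA-12 and crenolanib to the combination. Mean FPKM was 1.83-fold lower than DMSO with HPA-12, 2.64-fold lower with crenolanib and 12.5-fold lower in the combination. The log2 differences were −0.71 ± 0.13, −1.09 ± 0.13 and −2.21 ± 0.13 (−1.88 by median ratio for the combination). The combination was also lower than crenolanib by a log2 difference of −1.12 (−0.83) and than HPA-12 by −1.50 (−1.17). Both ID1 and SMAD6 are SMAD targets, yet their ratio within a library was 0.754 ± 0.169 for DMSO, 0.193 ± 0.0497 for HPA-12, 10.9 ± 2.49 for crenolanib and 183 ± 77.5 for the combination.

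SMAD7, which inhibits both arms, differed less. It stood at 6.31, 6.61 and 5.33 FPKM in DMSO and at 6.65, 8.20 and 8.90 with HPA-12. With crenolanib it stood at 6.17, 5.29 and 5.44 FPKM, inside or just below the DMSO range. Combination libraries gave 2.36, 1.60 and 2.37 FPKM, below the other 9. DMSO and crenolanib overlapped, and the lowest HPA-12 library lay just above the highest DMSO library. Log2 differences from DMSO were 0.33 ± 0.15 for HPA-12, −0.09 ± 0.15 for crenolanib (0.05 under upper-quartile scaling) and −1.19 ± 0.15 for the combination (−0.67 by median ratio).

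SKIL stood at 4.57, 5.26 and 5.47 FPKM in DMSO, 33.7, 47.7 and 40.8 with HPA-12 and 51.3, 51.5 and 49.5 with crenolanib. Combination libraries gave 12.3, 13.7 and 11.9 FPKM. The groups did not overlap, in the order crenolanib, HPA-12, combination, DMSO. Mean FPKM was 7.99-fold above DMSO with HPA-12, 9.95-fold with crenolanib and 2.48-fold in the combination. The log2 differences were 2.76 ± 0.12, 3.09 ± 0.12 and 1.16 ± 0.12 (1.79 by median ratio for the combination). Against crenolanib the combination was lower by a log2 difference of −1.93 ± 0.12 (−1.28 by median ratio), and against HPA-12 by −1.60 (−0.92). SKI, the close relative of SKIL, followed another course. It rose with HPA-12 from 39.8 ± 0.916 to 60.8 ± 3.99 FPKM (0.60 ± 0.11, limma adjusted p = 0.00087) and did not pass with crenolanib (0.06, 0.65). It fell in the combination to 13.0 ± 2.49 FPKM (−1.56, −0.90 by median ratio, limma adjusted p = 1.5e-07). The SKIL to SKI ratio in DMSO libraries was 0.128 ± 0.0145, against 0.677 ± 0.157 after HPA-12, 1.22 ± 0.0311 after crenolanib and 1.01 ± 0.281 after both.

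Counted over the 9 genes, HPA-12 had 6 with each library above DMSO and 3 with each library below it, where 44.2% and 35.3% of all tested genes did so. With crenolanib 6 were above, 2 below and 1 overlapped, against 37.4% and 40.4% of all tested genes. In the combination 6 were above DMSO and 3 below, against 15.1% and 56.4%. Compared with crenolanib, 3 were above and 6 below (8.08% and 56.8% of all), and compared with HPA-12 likewise 3 and 6 (14.0% and 56.7%). By limma's threshold the 9 genes counted 4 up and 2 down with HPA-12 (27.7% and 23.0% of all tested genes), 6 and 2 with crenolanib (27.4% and 28.9%), and 6 and 3 in the combination (14.8% and 56.5%). Against crenolanib the combination counted 3 up and 6 down (8.78% and 61.2%). Median-ratio scaling left 3 down, where 26.1% of all tested genes passed downward under that scaling. Against HPA-12 it counted 3 up and 6 down (14.5% and 57.8%). All 9 genes passed the filter of at least 1 FPKM in 3 libraries. The genes were chosen with these values known, so nothing is read from the counts. The 3 comparisons with DMSO share the same DMSO libraries.

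Beyond the 9 genes, 108 other genes of the BMP and TGF-beta pathway were listed by role, of which 56 passed the filter. With HPA-12, 21 rose and 8 fell (median log2 difference 0.30, against 0.09 over all tested genes). With crenolanib, 27 rose and 9 fell (0.37, against −0.04 over all). In the combination 14 rose and 31 fell (−0.44, against −0.62 over all), a split that became 20 and 17 under median-ratio scaling and 22 and 15 under upper-quartile scaling. Over all tested genes those scalings called 27.7% up and 33.8% down, and 30.1% up and 30.4% down. Against crenolanib the combination had 6 up and 36 down, or 13 and 19 by median ratio (20% and 26.1% of all tested genes) and 13 and 21 by upper quartile (19.2% and 28.2%). Against HPA-12 it had 9 up and 32 down, or 17 and 20 under either scaling (27.9% and 33.1% of all tested genes by median ratio, 28.4% and 32.3% by upper quartile). Without combination library 2 the counts were 14 and 31 against DMSO, 6 and 38 against crenolanib, and 10 and 32 against HPA-12. The effect of adding HPA-12 differed with and without crenolanib (limma interaction) for 43 of the 56, where 65.4% of all tested genes passed. The role lists were small. Intracellular inhibitors had 4 of 10 up and 1 down with HPA-12 and 6 up and 1 down with crenolanib. In the combination they had 1 up and 5 down against DMSO (4 and 4 by median ratio), 0 and 9 against crenolanib (0 and 4) and 0 and 6 against HPA-12 (2 and 4). Over all tested genes as deposited, 27.7% passed upward and 23.0% downward with HPA-12, and 27.4% and 28.9% with crenolanib. In the combination 14.8% passed upward and 56.5% downward against DMSO, 8.78% and 61.2% against crenolanib, and 14.5% and 57.8% against HPA-12. These shares stand beside both the role counts and the as-deposited counts over the 56 genes. Among 9 other SMAD target genes, 4 rose and 0 fell with HPA-12, and 5 rose and 2 fell with crenolanib. In the combination 5 rose and 4 fell (5 and 3 by median ratio).

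**Figure D5:**
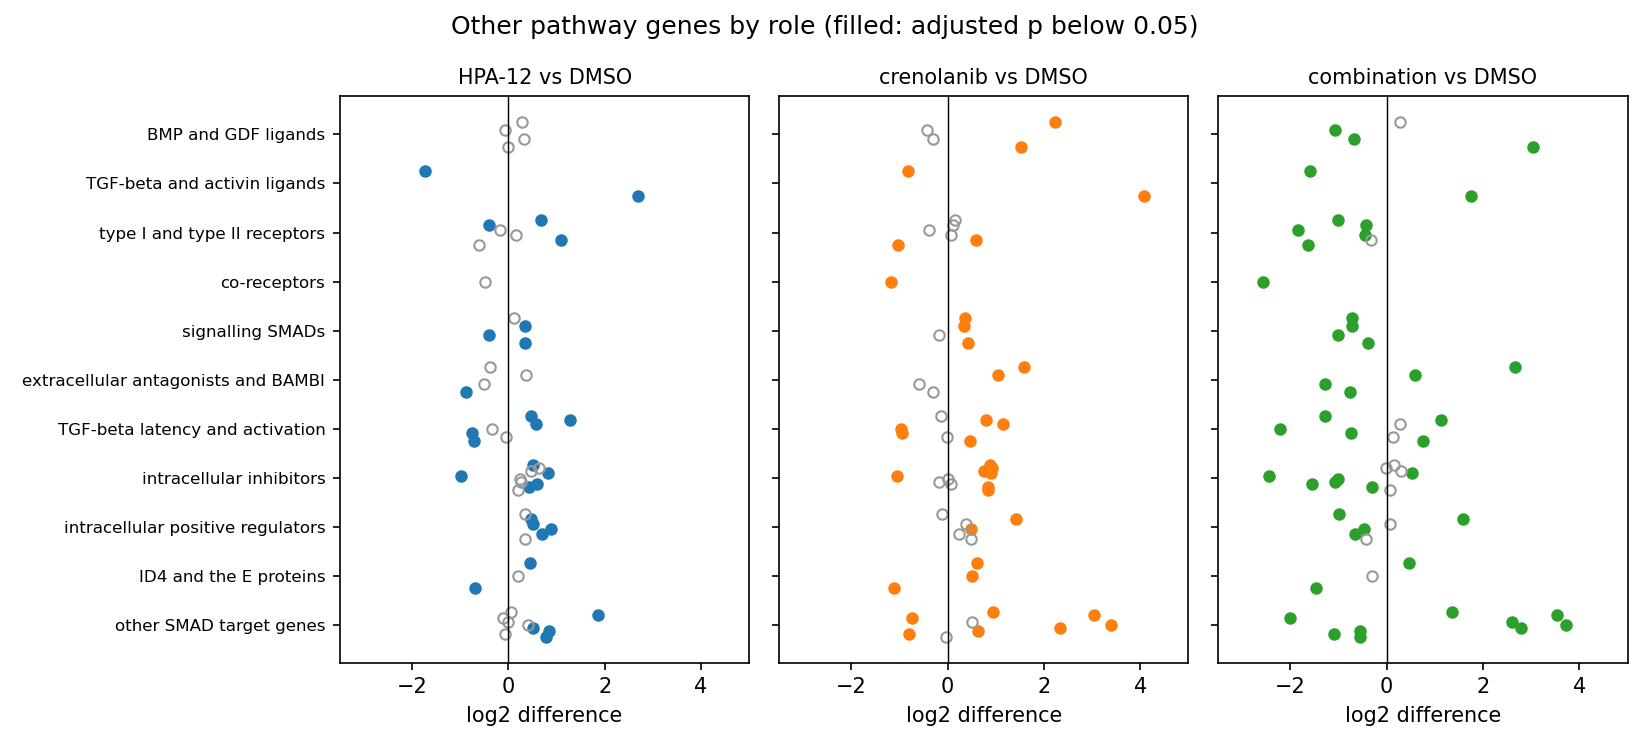
Log2 difference from DMSO of the 56 tested pathway genes outside the 9, by role, with filled points for limma adjusted p below 0.05 and open points otherwise, in 3 panels for HPA-12, crenolanib and the combination. The combination panel is shifted left as a whole (median −0.44, where all tested genes had −0.62), and SMAD target genes spread to both sides.

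Named genes of the other roles give the pattern its detail. CDKN1A, the cell-cycle inhibitor p21 and a SMAD target, rose from 4.05 ± 0.446 FPKM in DMSO to 17.3 ± 0.448 with HPA-12 (1.86 ± 0.10, limma adjusted p = 3.7e-08). It was at 40.7 ± 1.86 FPKM with crenolanib and 58.0 ± 6.71 in the combination (3.54, 4.20 by median ratio, limma adjusted p = 4.1e-11). JUNB, an AP-1 subunit, rose from 79.0 ± 1.84 to 404 ± 7.74 FPKM with crenolanib (2.34 ± 0.05, limma adjusted p = 8.5e-12) and stood at 555 ± 24.5 in the combination. The group means of CDKN1A and JUNB were highest in the combination, as those of ID1, ID2 and ID3 were. BAMBI, a decoy receptor that SMADs induce, rose from 0.843 ± 0.111 to 4.69 ± 1.48 FPKM with crenolanib (1.59 ± 0.20, limma adjusted p = 3.9e-05). It was at 10.8 ± 1.78 FPKM in the combination and at 0.417 ± 0.178 with HPA-12. Its group means had the same order as those of ID1, but its HPA-12 difference did not pass (−0.38, limma adjusted p = 0.13). HAMP, the hepcidin gene that BMP6 drives in liver, did not pass the filter, with at most 0.312 FPKM in any library.

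Among the genes that fell, TGIF2, a corepressor of SMADs, went from 25.7 ± 0.925 FPKM to 12.4 ± 0.484 with HPA-12 (−0.99 ± 0.11, limma adjusted p = 1.2e-05) and to 12 ± 0.563 with crenolanib (−1.04 ± 0.11, 7.4e-06). It stood at 3.90 ± 0.640 FPKM in the combination (−2.45, −1.86 by median ratio, limma adjusted p = 1.9e-09). LTBP1, which tethers latent TGF-beta to the matrix, fell with HPA-12 from 3.42 ± 0.167 to 1.70 ± 0.117 FPKM (−0.71 ± 0.11, limma adjusted p = 0.00020). In the combination it stood at 6.46 ± 0.475 FPKM, higher than with HPA-12 by 1.46 ± 0.11 (2.05 by median ratio, limma adjusted p = 2.0e-07). The latency genes LTBP4 (−0.75 with HPA-12, limma adjusted p = 0.0012) and NRROS (−0.96 with crenolanib, 0.0033) fell too. CREBBP (0.88, limma adjusted p = 1.2e-05), RUNX2 (0.83, 0.00087) and PPM1A (0.82, 0.00016) rose with HPA-12, and TGFBR1 fell (−0.41, 0.0095). TGFBI (−2.00, −1.38 by median ratio, limma adjusted p = 7.4e-09) and ACVR1B (−1.85, −1.40, 0.00011) fell in the combination against DMSO. FURIN (−1.76, −1.08, 3.8e-07) and TGFBR2 (−1.69, −1.02, 1.4e-07) were lower in the combination than with HPA-12.

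Genes whose log2 changes lay nearest to those of BMP6 and ID1 were ranked among 8954 genes by root mean square distance over the 9 treated libraries. For BMP6 these were H2BC6 (distance 0.40), H2AC6 (0.65), TSC22D3 (0.70) and H4C8 (0.73). The mean FPKM of H2BC6 was 0.345 for DMSO, 14.5 for HPA-12, 9.26 for crenolanib and 4.52 for the combination, where BMP6 had 0.0749, 14.4, 5.95 and 2.88. H2BC6, H2AC6 and H4C8 encode histones with near-identical copies, so their counts are uncertain. TSC22D3 encodes the glucocorticoid-induced leucine zipper protein. For ID1 they were DUSP2 (0.61), VASN (0.64), RASL11A (0.80) and RND1 (0.83). DUSP2, a nuclear phosphatase of MAP kinases, had mean FPKM of 7.52 for DMSO, 1.60 for HPA-12, 72.9 for crenolanib and 155 for the combination. VASN, a cell-surface protein that binds TGF-beta, stood at 1.57, 0.554, 13.8 and 32.4 FPKM in the same order. These genes were chosen for their likeness, which is a description of the 12 libraries.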

How the data were processed

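The 12 RNA-seq libraries (MV-4-11, 4 groups of 3) were taken from 1 table of FPKM values, which the authors deposited for 20036 genes. Aligner, counting method and genome build were not given in the sources used here. Depth was estimated from low FPKM multiplied by exon length (GENCODE 29, 19852 genes with a length), where values below 20 reads came out whole within 0.01 read for 30.8% to 39.7% of cases. Read numbers are therefore estimates, and no count test was run. Genes reaching 1 FPKM in 3 or more libraries (11149) were tested on log2(FPKM + 1) in 1 limma 3.58.1 fit (R 4.3.3, statmod 1.5.0) with 4 group levels and a trended, robust, two-sided test, Benjamini-Hochberg adjusted over all tested genes at 0.05. Folds on this scale understate changes of low genes. The fit was tested on simulated data, where false calls were more frequent for the combination against DMSO than for either single compound.

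Alternatives were a constant of 0.1, no filter, a mean of at least 5 FPKM, median-ratio and upper-quartile scaling, totals without the 13 mitochondrial genes, a replicate block, fits of only the 2 groups compared, group-wise weights, and each library left out in turn. The members and lists were chosen with earlier results of these data known. Besides the 9 members, the text names up to 6 pathway genes per direction and comparison (largest log2 difference among those that passed, mean of at least 2 FPKM), SMAD1, SMAD4, SMAD5, BMPR1A, ACVR1, TCF3, TCF12, ID4, HAMP and SKI always, and the 4 genes nearest to BMP6 and to ID1. A pathway gene that this rule selects is not reported here. Combination library 2 and its collagen genes were singled out after their values were seen.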

Additional observations from a re-analysis of the deposited data

Results flagged for a closer look

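Several of the 9 genes differed in opposite directions, in each library as deposited, when a compound was added alone or on top of the other compound. The log2 differences are given with the median-ratio value in brackets and were not tested against each other. Adding HPA-12 gave BMP6 3.84 alone (3.67) and −1.02 on top of crenolanib (−0.52). The second value was −0.46 without combination library 2, and after scaling the BMP6 levels of these groups overlapped. Adding crenolanib gave BMP6 2.69 alone (2.56) and −2.17 on top of HPA-12 (−1.63). For BMPR2 the values were 1.06 (1.00) and −0.77 (−0.27) for HPA-12, and 1.14 (1.11) and −0.68 (−0.17) for crenolanib, and its combination levels overlapped both single compounds after scaling. For SKIL they were 2.76 (2.71) and −1.93 (−1.28), and 3.09 (3.07) and −1.60 (−0.92). ID1 had −1.72 (−1.65) and 1.68 (2.35) on adding HPA-12, and SMAD7 had 0.33 (0.30) and −1.10 (−0.59). Over all tested genes the median interaction was −0.65 as deposited and −0.12 by median ratio.

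For pathway genes outside the members, the interaction (the effect of adding HPA-12 to crenolanib, less its effect alone) was tested with limma and passed for 43 of 56, where 65.4% of all tested genes passed. Of the named genes that passed as deposited and under both scalings, negative values (median ratio in brackets) were found for INHBA at −5.03 (−4.32), SKI at −2.22 (−1.54), ACVR1 at −2.03 (−1.59), RUNX2 at −2.02 (−1.38), CREBBP at −1.85 (−1.20) and TGFBR2 at −1.84 (−1.18). Smaller negative values were found for FURIN at −1.61 (−0.94), SMAD4 at −1.42 (−0.93), CDKN1A at −1.37 (−0.64), PPM1A at −1.19 (−0.56), SMAD5 at −1.19 (−0.67) and TGFBI at −1.14 (−0.50). Positive values were found for BMP2 at 1.53 (2.11), BAMBI at 1.46 (2.06), LTBP1 at 1.00 (1.59), GDF11 at 0.96 (1.26), LTBP4 at 0.95 (1.46) and TCF3 at 0.35 (1.04).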

How the results depend on the processing

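Of the 21 counts, a mean of at least 5 FPKM moved 13 by over 1.5 times, median-ratio scaling 6 and upper-quartile scaling 7. Median-ratio scaling moved the difference between combination and crenolanib to 0.022 for TGFB1, 0.31 for TCF3 and 0.48 for TCF12. Upper-quartile scaling gave −0.021 for TGFB1, 0.27 for TCF3 and 0.44 for TCF12. Median-ratio scaling left 3 members down in that comparison, as did upper-quartile scaling (26.1% and 28.2% of all tested genes passed downward). In the combination, pathway counts by median ratio and upper quartile became 20 and 22 up and 17 and 15 down against DMSO, 13 and 13 up and 19 and 21 down against crenolanib, and 17 and 17 up and 20 and 20 down against HPA-12. A mean of at least 5 FPKM, which tests fewer genes, gave 11 up and 4 down with HPA-12, 10 and 5 with crenolanib, 5 and 17 in the combination, 2 and 21 against crenolanib, 3 and 19 against HPA-12, 22 interactions, and 1 member down with HPA-12 and 1 with crenolanib. Without a filter, 16 rose against HPA-12. Group-wise weights gave 33 up and 14 down with HPA-12 and 14 down with crenolanib, and a fit of only the 2 groups gave 13 down with HPA-12. The causes of these last moves were not tested. Counts under the filter changes, weights, 2-group fits, single libraries left out and the replicate block stand without shares over all tested genes. Nothing is read from them about the listed genes.

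Leaving out 1 library at a time gave 14 to 25 up and 7 to 11 down with HPA-12, 23 to 30 and 8 to 11 with crenolanib, 13 to 16 and 27 to 32 in the combination, and 40 to 45 interactions. Deviations from the group mean correlated at −0.0295 to 0.068 between same-numbered libraries and at −0.096 to 0.064 between differently numbered ones. With 3 libraries per group, such values cannot tell whether the numbers pair the libraries by design. With a replicate block, 20 pathway genes rose with HPA-12 and 26 with crenolanib, and the calls of SMAD5 with crenolanib (adjusted p = 0.055) and LTBP1 against crenolanib (0.056) were lost. Levels resting on few estimated reads (BMP6 and ID3 in DMSO, ID1 with HPA-12, SMAD6 in the combination) limit what their folds can show.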
